A study of Drosophila melanogaster with 2 samples.

Results

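The distal 200 kb of 4 chromosome arms of Drosophila melanogaster were examined for dimethylation of histone H3 at lysine 9 (H3K9me2) in larvae of the third instar. They were taken by position on Release 5 of the genome, at 1-200000 of arms 2L, 3L and X and as the last 200 kb of arm 3R, whose tip is at its high end. Each arm was divided into bins of 300 bp from its first base, and a bin was kept when it held at least 1 tag, that is 1 mapped and extended read, in either library. This left 2282 of the 2668 bins in the 4 ends, or 0.616% of the 370738 bins with a tag on the chromosome arms (without 1 Mb at the centromeric end) and chromosome 4. There were 640 bins on 2L, 572 on 3L, 480 on X and 590 on 3R.

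The data are 1 ChIP-seq library from the mutant EHMTDD1 and 1 from the control EHMT+, each made from whole larvae reared on standard medium and precipitated with the same H3K9me2 antibody. EHMTDD1, which is viable, carries a deletion in EHMT that includes the start of translation and was left by the imperfect excision of a P-element. EHMT+ is a line from which the same element was excised precisely, so that both share their genetic background. Each genotype is 1 line and 1 library of mixed larval tissues, so a difference between them cannot be set against replicates and no test was made. The number and sex of the larvae are not given in the sources used here. Both libraries hold 7043913 tags, because the authors equalized them to the smaller one. The intervals below are 95% intervals and cover counting error only, and no library of input DNA was used, so the number of DNA copies was not separated from H3K9me2.

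Fly chromosomes end in arrays of the retrotransposons HeT-A, TART and TAHRE in place of the short telomerase-made repeats of most animals, and inward of these lie telomere-associated satellite repeats that can silence a transgene placed among them. H3K9me2 is a mark of repressed chromatin and a binding site for heterochromatin proteins. EHMT, also called G9a, is a histone methyltransferase that places H3K9me2 in euchromatin. Reads from repeats seldom have a unique position, so what is described here is the unique sequence next to the arrays and not the arrays themselves. Sequence of these regions is not shown, since no genome of Release 5 was used.

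The ends differed in how much of them could be seen. On 3L, neither library had a tag in the outermost 19500 bp. The tip-most tag began at base 19597 in EHMTDD1 and at base 19775 in EHMT+. On 2L the tip-most tag began at base 5095 in EHMTDD1 and at base 4841 in EHMT+, and on X at base 6416 in EHMTDD1 and at base 6666 in EHMT+. On 3R, where the tip is the high end, the last tag ended at base 27898642 in EHMTDD1 and at base 27898753 in EHMT+. The outermost tags of both genotypes thus lay within 300 bp of each other at every end. X had the most bins without a tag, 187 of 667 (28.0%), among them 17700 bp at 111601-129300, and 2L the fewest, 27 of 667 (4.05%). On the next 800 kb of the 4 arms, 2.21 to 4.80% of bins lacked a tag.

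In EHMTDD1 the distal 200 kb held 10831 tags on 2L, 9661 on 3L, 6728 on X and 8055 on 3R. In EHMT+ they held 11322 on 2L, 11042 on 3L, 9508 on X and 8890 on 3R. All 4 ends therefore had fewer tags in the mutant library. The ratio of EHMTDD1 to EHMT+ was 0.957 on 2L (0.932 to 0.982), 0.875 on 3L (0.851 to 0.899), 0.708 on X (0.686 to 0.730) and 0.906 on 3R (0.879 to 0.934). These are intervals from the exact conditional binomial distribution. In the next 800 kb of the same arms the ratio lay on the other side of 1, at 1.11 on 2L, 1.09 on 3L, 1.05 on X and 1.12 on 3R. Over the 4 ends together EHMTDD1 had 35275 tags and EHMT+ 40762, a ratio of 0.865 (0.853 to 0.878), and over the next 800 kb 186961 and 171334, a ratio of 1.09 (1.08 to 1.10).

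**Figure D1:**
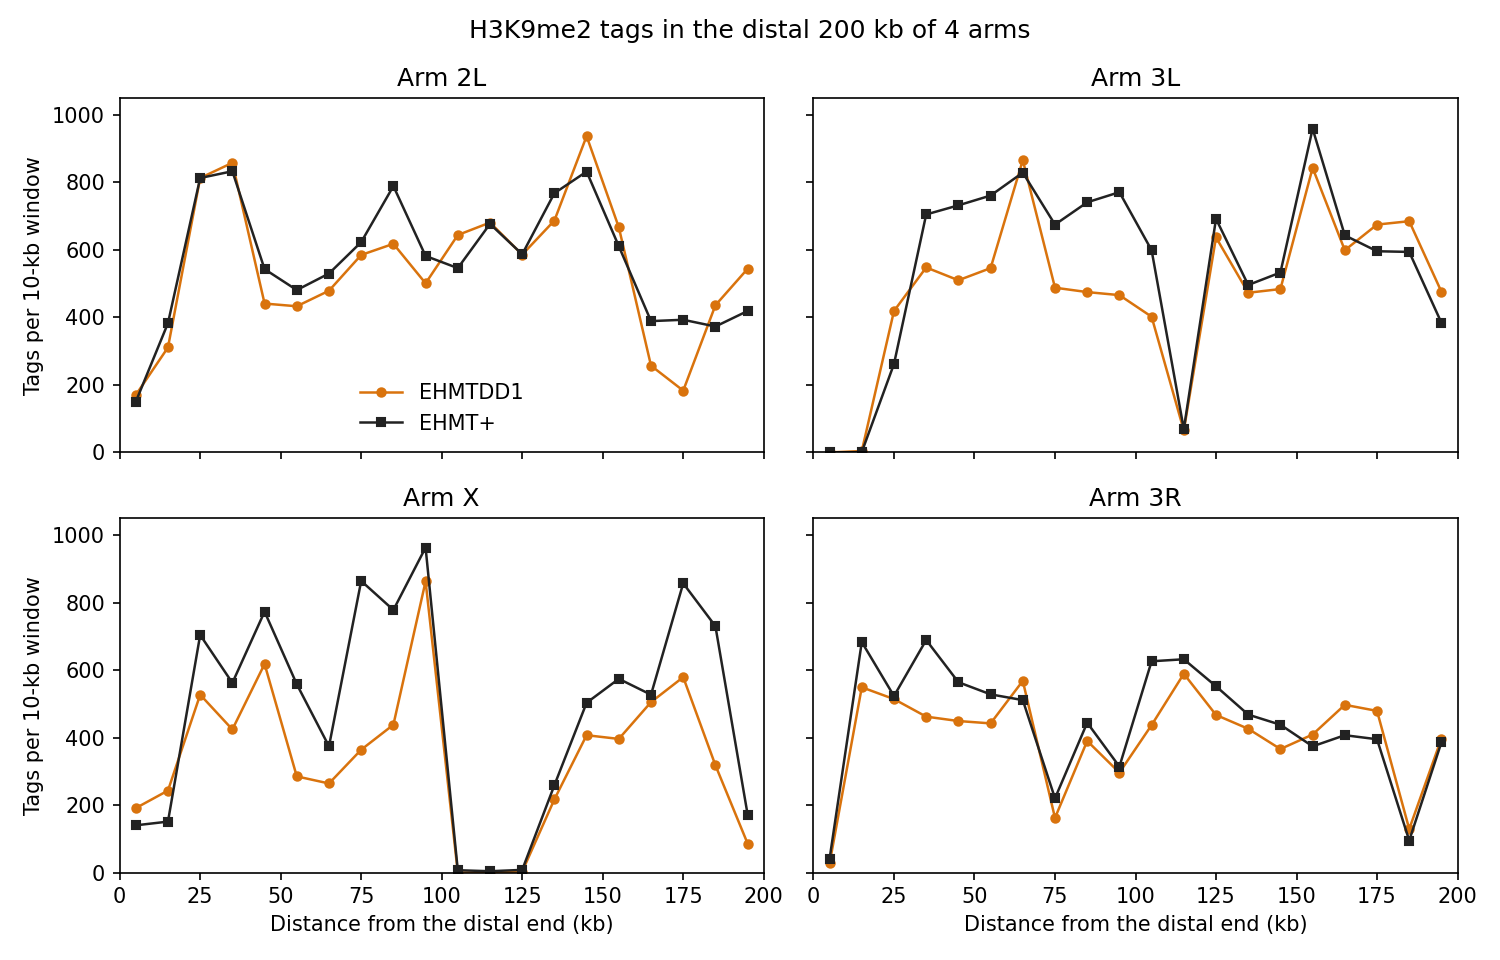
Tags per 10-kb window (y axis) against distance from the distal end in kb (x axis) in EHMTDD1 (orange circles) and EHMT+ (black squares) on arms 2L, 3L, X and 3R, with 1 library per genotype and no error bars. On X the EHMTDD1 line runs below the EHMT+ line in 15 of the 17 windows with at least 50 tags. Windows near 0 have few tags in either library, and the reason was not tested.

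Set against the other 200-kb windows of the 5 arms, the 4 ends held different places. The end of X had the lowest ratio of EHMTDD1 to EHMT+ among 568 windows, whose median was 1.01. The end of 3L came 33rd, that of 3R 68th and that of 2L 154th from the lowest. Within its own arm the end of 3R was 7th of 134 windows, that of 3L 9th of 117 and that of 2L 44th of 110, so the end of 2L was not exceptional by this measure. The 6 windows of chromosome 4, which is rich in heterochromatin, ran from 0.512 to 0.719, and the end of X lies within that range.

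The level of H3K9me2 was then set against the next 800 kb within each library, with density taken over bins with a tag. In EHMTDD1 the ends were less dense than the next 800 kb on every arm. On 2L the densities in EHMTDD1 were 56.4 tags per kb in the end and 60.8 in the next 800 kb, a ratio of 0.929 (0.909 to 0.948). The ratio in EHMTDD1 was 0.900 (0.880 to 0.920) on 3L, 0.777 (0.757 to 0.797) on X and 0.781 (0.762 to 0.799) on 3R. In EHMT+ the ends were the denser part on 3 arms, by 1.08 times on 2L (1.06 to 1.10), 1.12 times on 3L (1.10 to 1.14) and 1.15 times on X (1.12 to 1.17), and slightly less dense on 3R, at 0.967 (0.945 to 0.989).

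The ratio in EHMTDD1 was below that in EHMT+ at all 4 ends and in each of the 6 ways of computing it, 24 of 24 comparisons. Both libraries were divided by the same kb, so in the main setting this order restates the ratios of EHMTDD1 to EHMT+ given above. The other ways reuse the same tags, so the 24 comparisons are not separate support. Where each ratio lay relative to 1 depended on the sequence chosen for comparison. Against the whole rest of the arm, without 1 Mb at the centromeric end, the ends of 2L and 3L were denser than the arm in EHMTDD1 as well, by 1.13 and 1.06 times. With bins without a tag counted in, the ends of 3L and X in EHMT+ were the less dense part, at 0.985 and 0.868.

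**Figure D2:**
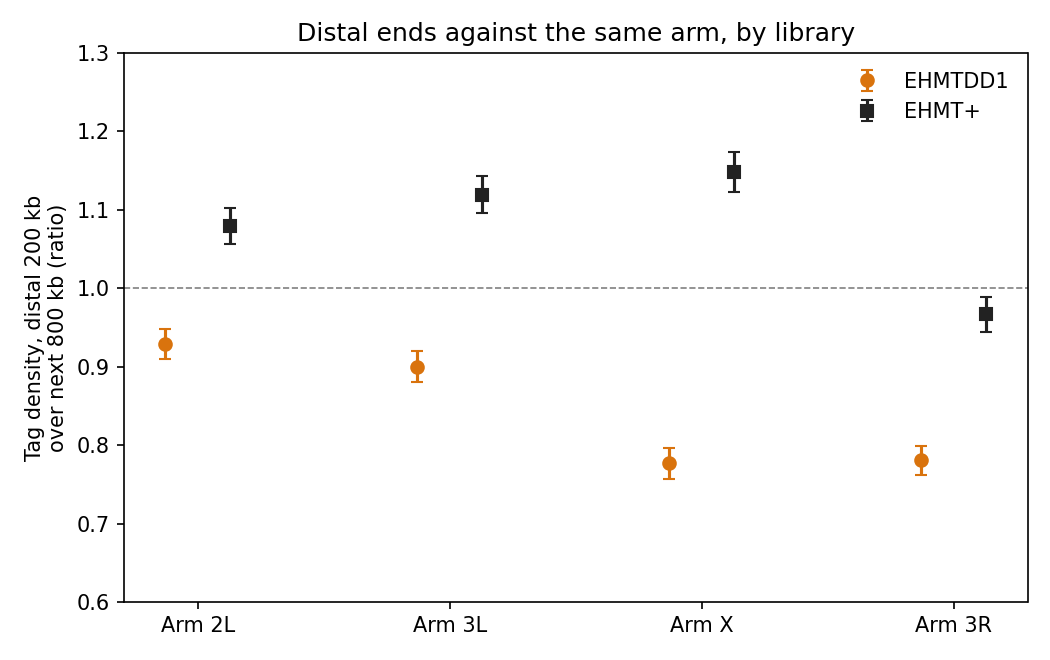
Tag density of the distal 200 kb over that of the next 800 kb (y axis, a ratio) for each arm (x axis) in EHMTDD1 (orange circles) and EHMT+ (black squares), with bars for exact 95% intervals of counting error. The EHMTDD1 values run from 0.777 to 0.929 and each lies below the EHMT+ value of its arm, which run from 0.967 to 1.15.

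The typical bin and the spread between bins moved apart. The median bin of the X end had 22 tags in EHMTDD1 and 38 in EHMT+, with tags counted in every bin they overlap. The medians were 31 in EHMTDD1 and 33 in EHMT+ on 2L, 32 and 39 on 3L, and 26 and 30 on 3R. At each end the bins of EHMTDD1 were spread more widely, with an SD between bins of 24.4 tags against 16.4 tags in EHMT+ on 2L and 24.5 against 20.9 on X. The 5th percentile was lower in EHMTDD1 at each end, with 2 tags in EHMTDD1 and 13 in EHMT+ on 2L and 1 and 4 on X. The 95th percentile was higher in EHMTDD1 at each end. It was 74.1 tags in EHMTDD1 and 65 in EHMT+ on 2L, 71 and 65 on 3L, 81.05 and 76 on X, and 60 and 52 on 3R. EHMTDD1 was the wider library over all bins with a tag too, with an SD of 21.7 tags against 16.2 tags in EHMT+.

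To count local losses, the log2 ratio of EHMTDD1 to EHMT+ was taken per bin after adding 1 to both counts. Limits were set at the mean minus and plus 2 SD of 384481 bins of the arms and chromosome 4, which gave -1.90 (3.74-fold lower in EHMTDD1) and 1.56 (2.96-fold higher). Bins below the lower limit are called loss of methylation bins (LOMBs) after the study's term, although the limit here is not the study's own. LOMBs numbered 244 of 2282 bins in the 4 ends, or 10.7% (Wilson interval 9.49 to 12.0%), where 5.37% of all bins with a tag were LOMBs. In the next 800 kb of the 4 arms they numbered 286 of 10311 bins, or 2.77% (2.47 to 3.11%). Neighbouring bins share tags, so these intervals are too narrow. The share at the ends was thus above that of all bins, and the share averaged over the next 800 kb was below it.

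By arm, the X end held 87 LOMBs among 480 bins, or 18.1% (14.9 to 21.8%), against 3.94% of its next 800 kb. The end of 2L held 60 (9.38%) against 1.79%, that of 3L 49 (8.57%) against 2.93%, and that of 3R 48 (8.14%) against 2.45%. The next 800 kb was low for its arm. Over the whole rest of the arm, without 1 Mb at the centromeric end, the share was 5.59% on 2L, 5.33% on 3L, 5.83% on X and 4.11% on 3R. The end exceeded the next 800 kb on every arm. The intervals of the 2 regions did not overlap on any arm, but they are too narrow because neighbouring bins share tags. Their separation therefore tests nothing, and bins do not stand in for replicate libraries. In the LOMBs of the X end the median count was 3 tags in EHMTDD1 and 34 in EHMT+, and in those of the 3L end 4 and 38. These bins were near the usual level in the control and nearly empty in the mutant. On 2L their median in EHMT+ was 24.5 tags, below the 33 of all bins of that end.

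LOMBs were also read at matched control levels, because bins with few tags cross a limit more easily. Among bins with 25 to 39 EHMT+ tags, 82 of 846 bins of the ends (9.69%) were LOMBs, against 119 of 5071 bins (2.35%) of the next 800 kb. With 40 to 59 control tags, 8.57% of bins of the ends and 1.71% of the others were LOMBs, and with 60 or more 5.88% and 0.783%. Among bins with 1 to 9 tags they were 18.4% (12.1 to 27.0%) and 11.0% (6.80 to 17.4%). As neighbouring bins share tags, such intervals are too narrow, and whether they overlap tests nothing in any class. The share was thus higher at the ends in all 5 classes of control level, and fell from the lowest class to the highest in both regions.

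**Figure D3:**
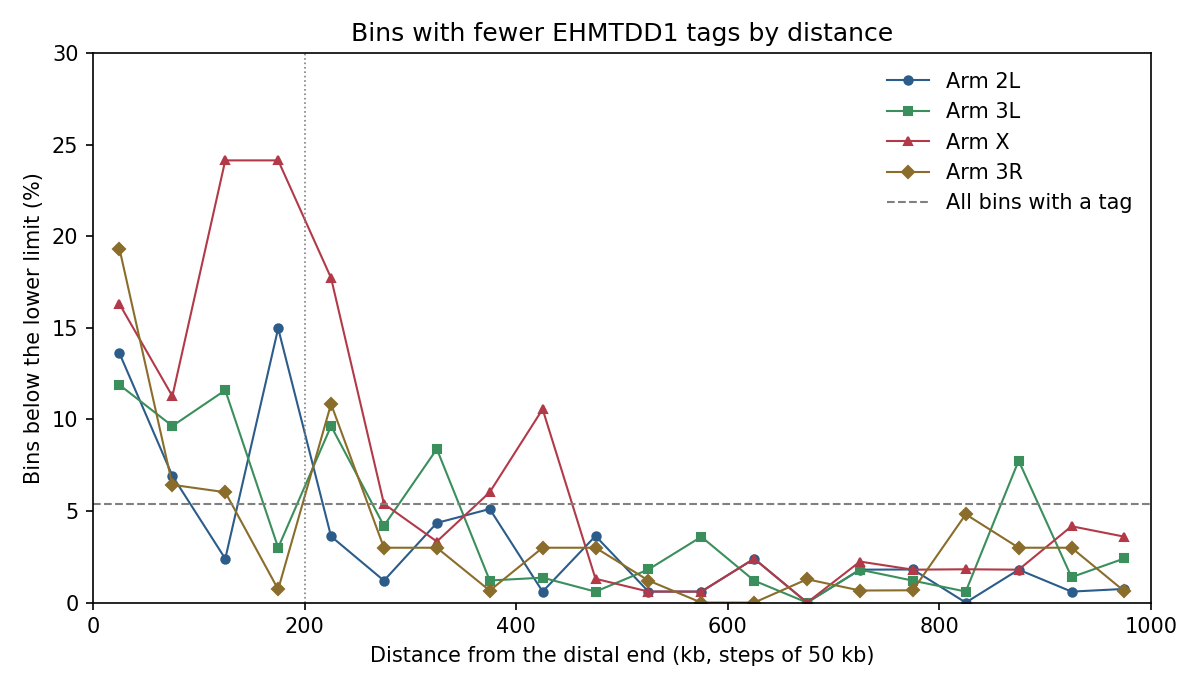
Share of bins below the lower limit in percent (y axis) in steps of 50 kb from the distal end (x axis, kb) for arms 2L, 3L, X and 3R. The dashed line is the share of all bins with a tag, 5.37%, and the dotted line marks 200 kb. All 4 arms lie above the dashed line in the outermost 100 kb, and beyond 500 kb only 3L at 850 to 900 kb does, at 7.75%.

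By distance from the tip, LOMBs were most frequent in the outermost step when the arms were pooled, and did not fall steadily from there. Over the 4 arms, LOMBs made up 15.5% of bins within 50 kb of the end, 8.57% at 50 to 100 kb, 8.32% at 100 to 150 kb, 10.7% at 150 to 200 kb and 10.4% at 200 to 250 kb. At 250 to 300 kb the share was 3.44%, and at 650 to 700 kb it was 0.319%. The median log2 ratio of bins was below 0 on all 4 arms in both steps of the outermost 100 kb. From 300 to 1000 kb, the median of a 50-kb step ranged from -0.08 to 0.30 on 2L, -0.04 to 0.28 on 3L, -0.14 to 0.32 on X and -0.04 to 0.36 on 3R. Each arm had a different course with distance.

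On X both the lower typical bin and the higher share of LOMBs ran on past 200 kb. LOMBs made up 16.3% of X bins within 50 kb, 11.3% at 50 to 100 kb and 24.1% in each of the next steps to 200 kb. The step at 150 to 200 kb held 35 LOMBs in 145 bins. The step at 100 to 150 kb held 14 in only 58 bins. Among those 14 were the runs at 102001-102600, 111001-111300 and 136501-137400, with only 4, 2 and 5 EHMT+ tags. The median log2 ratio of the 4 steps in the X end lay between -0.81 and -0.32, and the step at 200 to 250 kb still had a median of -0.58 with 17.7% LOMBs. By 250 to 300 kb the median was -0.25 and the share 5.39%. The next 800 kb of X therefore includes part of the same stretch of loss. A later step of X, at 400 to 450 kb, held 10.6% LOMBs with a median log2 ratio of 0.12. Its first window, 400001-410000, had 314 tags in EHMTDD1 and 508 in EHMT+, a ratio of 0.618. The other windows of that step had ratios from 1.09 to 1.28.

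On 2L the losses came in separate places. The step within 50 kb held 20 LOMBs in 147 bins (13.6%) and the step at 150 to 200 kb 25 in 167 bins (15.0%). Between them the share was 6.92% at 50 to 100 kb and 2.40% at 100 to 150 kb. The 10-kb window of 2L with the lowest ratio, 170001-180000, had 183 tags in EHMTDD1 and 393 in EHMT+, a ratio of 0.466 (0.389 to 0.556). The window just inward of it, 180001-190000, had 436 tags in EHMTDD1 and 373 in EHMT+. With the LOMBs left out, the end of 2L had a ratio of 1.02, above 1, whereas X kept 0.817, 3L 0.936 and 3R 0.974. These bins were chosen by the same ratio, so this describes how the deficit was spread and tests nothing.

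On 3L and 3R the lower ratio was spread over most of the end and was absent from its innermost windows. On 3L, 8 of the 9 windows from 30 to 120 kb had fewer tags in EHMTDD1, and the lowest, 90001-100000, had 466 in EHMTDD1 and 771 in EHMT+, a ratio of 0.604 (0.538 to 0.679). The 5 windows of 3L from 120 to 170 kb were also lower in EHMTDD1, at ratios from 0.879 to 0.954. The last 3 windows of the 3L end, from 170 to 200 kb, had more tags in EHMTDD1, at ratios from 1.13 to 1.24. On 3R the share of LOMBs was 19.3% within 50 kb and 0.719% at 150 to 200 kb, where EHMTDD1 was the higher library in each of the 5 windows. From the tip of 3R to 150 kb, 14 of 15 windows had fewer tags in EHMTDD1. The window of 3R with most EHMT+ tags, 30 to 40 kb from the end, had 462 tags in EHMTDD1 and 689 in EHMT+, a ratio of 0.671 (0.595 to 0.756). Past both ends, at 200 to 250 kb, LOMBs rose again to 9.64% on 3L and 10.8% on 3R, with a median log2 ratio of 0.13 on each. In that step the window at 230 to 240 kb had a ratio of 0.668 on 3L. On 3R it had 301 tags in EHMTDD1 and 608 in EHMT+, a ratio of 0.495.

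Counted over windows of 10 kb in which the libraries summed to 50 or more tags, EHMTDD1 had the fewer tags in 53 of 75 windows of the ends and in 79 of 320 windows of the next 800 kb. The interval of the ratio lay wholly below 1 in 36 windows of the ends and wholly above 1 in 13. In the next 800 kb these numbers were 21 below and 135 above. The next 800 kb was not typical of its arm in this ratio. Over the whole rest of the arm, without 1 Mb at the centromeric end, the ratio of tags was 0.979 on 2L, 1.00 on 3L, 0.972 on X and 1.03 on 3R. Counts over all 10-kb windows of the arms are not given. The end of X contributed 13 of its 17 windows to those wholly below 1, and the end of 2L 7 of 20.

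**Figure D4:**
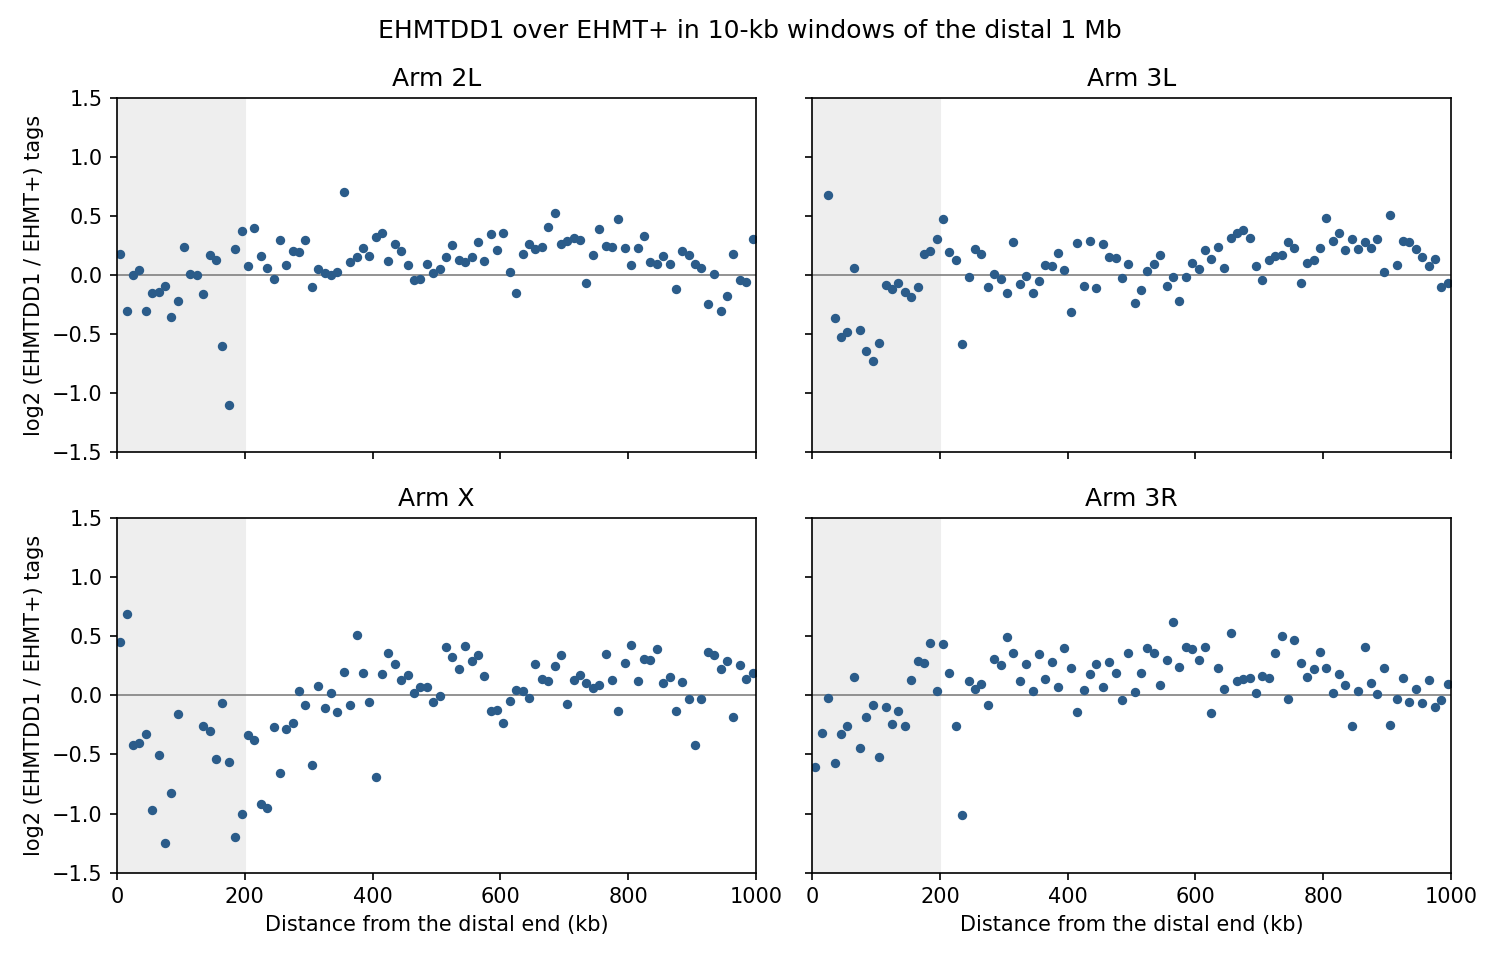
The log2 ratio of EHMTDD1 to EHMT+ tags (y axis) in each 10-kb window where the libraries sum to 50 or more tags, against distance from the distal end in kb (x axis), for arms 2L, 3L, X and 3R, with the distal 200 kb shaded. EHMTDD1 has the fewer tags in 53 of 75 shaded windows and in 79 of 320 of the others.

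The outermost tagged windows went the other way on 2 of the 4 arms. On X the window at 1-10000 had 191 tags in EHMTDD1 and 140 in EHMT+, a ratio of 1.36 (1.09 to 1.71). The next, at 10001-20000, had 243 in EHMTDD1 and 151 in EHMT+, a ratio of 1.61 (1.31 to 1.98), and from 20 to 100 kb every window of X had fewer tags in EHMTDD1. On 3L the outermost window with at least 50 tags, 20001-30000, had 419 tags in EHMTDD1 and 262 in EHMT+, a ratio of 1.60 (1.37 to 1.87). On 2L the outermost window had 170 and 150 tags, a ratio of 1.13 (0.905 to 1.42), and on 3R 27 and 41, a ratio of 0.659 (0.390 to 1.10), and both intervals include 1.

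Most of the excess in that window of 3L came from a segment of 3300 bp that begins 21.6 kb from the tip. By the midpoint of the tag EHMTDD1 had 168 tags there and EHMT+ 17, a ratio of 9.88 (5.99 to 17.4). This is a density of 50.9 tags per kb in EHMTDD1 and 5.15 in EHMT+. Tags per bin from the tip inward were 8, 9, 13, 35, 61, 43, 18, 23, 33, 45 and 41 in EHMTDD1. In the same 11 bins EHMT+ had 2, 0, 1, 3, 3, 2, 3, 5, 3, 3 and 7 tags. The segment was chosen because each of its bins passed the upper limit, so that EHMTDD1 is higher in all of them by choice, and the interval of its ratio takes no account of that. Both strands contributed in EHMTDD1, with 80 plus and 88 minus tags, and in EHMT+ with 10 and 7.

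The gain had an inner border and no clear outer one. In the 2000 bp on the tip side EHMTDD1 had 39 tags and EHMT+ 9, with a second pair of bins above the upper limit at 20101-20700, where EHMTDD1 had 22 and 26 tags and EHMT+ 1 and 1. In the 2000 bp on the inner side EHMTDD1 had 78 tags and EHMT+ 93. EHMT+ came up over these bins, to 10, 14, 32 and 35 tags, while EHMTDD1 had 24, 29, 32 and 21. From the first tagged bin of 3L to the inner border of the segment, no bin of EHMT+ exceeded 7 tags. At 11 bins this was the longest of 717 runs of bins above the upper limit on the arms and chromosome 4, and the next had 8 bins. The most distal protein-coding gene of 3L in RefSeq's Release 6 order is mthl8, a gene of the methuselah-like family of G protein-coupled receptors, but its place in Release 5 was not used and it is not assigned to this segment. A difference between the lines in the copies of this segment was not tested.

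Above the upper limit lay 20 bins of the 4 ends, or 0.876% (0.568 to 1.35%), against 0.243% of all bins with a tag and 32 bins (0.310%) of the next 800 kb. Of these 20 bins, 15 were on 3L, 3 on X, 1 on 2L and 1 on 3R. The 3L segment alone held 11 of them, which leaves 9 of 2271 bins, or 0.396% (0.209 to 0.751%), in the rest of the 4 ends. Without the segment the interval includes the share of the next 800 kb and that of all bins, but this tests nothing. The segment was chosen because its bins passed the limit, so leaving it out had to lower the share. Those on X lay at 9601-9900 and 10201-10800, in the outermost windows described above.

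LOMBs were grouped into runs of consecutive bins. The X end had 48 runs, of which 26 were single bins, 2L had 32 with 15 single, 3L 28 with 15 single and 3R 24 with 14 single. About as many runs were single bins as were longer. The longest was on 3R at 27870901-27874500, 30.6 kb from the end, with 23 tags in EHMTDD1 and 206 in EHMT+, a ratio of 0.112 (0.0692 to 0.172). From the centromeric side, its 12 bins had 4, 6, 5, 6, 6, 3, 2, 3, 4, 4, 3 and 0 tags in EHMTDD1. In EHMT+ the same bins had 41, 56, 39, 32, 32, 26, 22, 33, 51, 43, 20 and 19 tags. Just outside, the bin on the centromeric side had 40 tags in EHMTDD1 and 25 in EHMT+. On the tip side EHMTDD1 was still lower in the first bin, with 16 tags against 35 in EHMT+, and level in the next, with 41 and 37.

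On X the longest run was at 177001-179100, with 17 tags in EHMTDD1 and 176 in EHMT+, a ratio of 0.0966 (0.0550 to 0.159). Its 7 bins had 1, 1, 2, 5, 11, 7 and 4 tags in EHMTDD1 and 13, 36, 55, 53, 68, 70 and 54 in EHMT+. Inward of it EHMTDD1 stayed lower, with 29, 26 and 5 tags against 78, 81 and 56 in EHMT+, and so it was in the first bin on the tip side, with 5 tags against 21 in EHMT+. The libraries were level in the next bin towards the tip, at 41 and 43 tags. The window of X inward of the one with the run, 180001-190000, was low in EHMTDD1, with 318 tags and 730 in EHMT+. On the tip side, 160001-170000 had 505 tags in EHMTDD1 and 527 in EHMT+, a ratio of 0.958 (0.846 to 1.08). Beyond it, 150001-160000 had a ratio of 0.690. The window of X with the lowest ratio was 70001-80000, with 364 tags in EHMTDD1 and 864 in EHMT+, a ratio of 0.421 (0.372 to 0.477).

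On 2L the longest run covered 6 bins at 9601-11400, with 8 tags in EHMTDD1 and 49 in EHMT+, a ratio of 0.163 (0.0668 to 0.348). EHMT+ itself was low there, at 13 to 22 tags per bin. A run of 4 bins at 174001-175200 lay in the lowest window of 2L and had 2 tags in EHMTDD1 and 56 in EHMT+. On 3L the longest run covered 5 bins at 144601-146100, with 3 tags in EHMTDD1 and 31 in EHMT+, a ratio of 0.0968 (0.0189 to 0.310). The runs of 2L and 3L thus stood on fewer control tags than those of 3R and X and are less precisely measured.

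**Figure D5:**
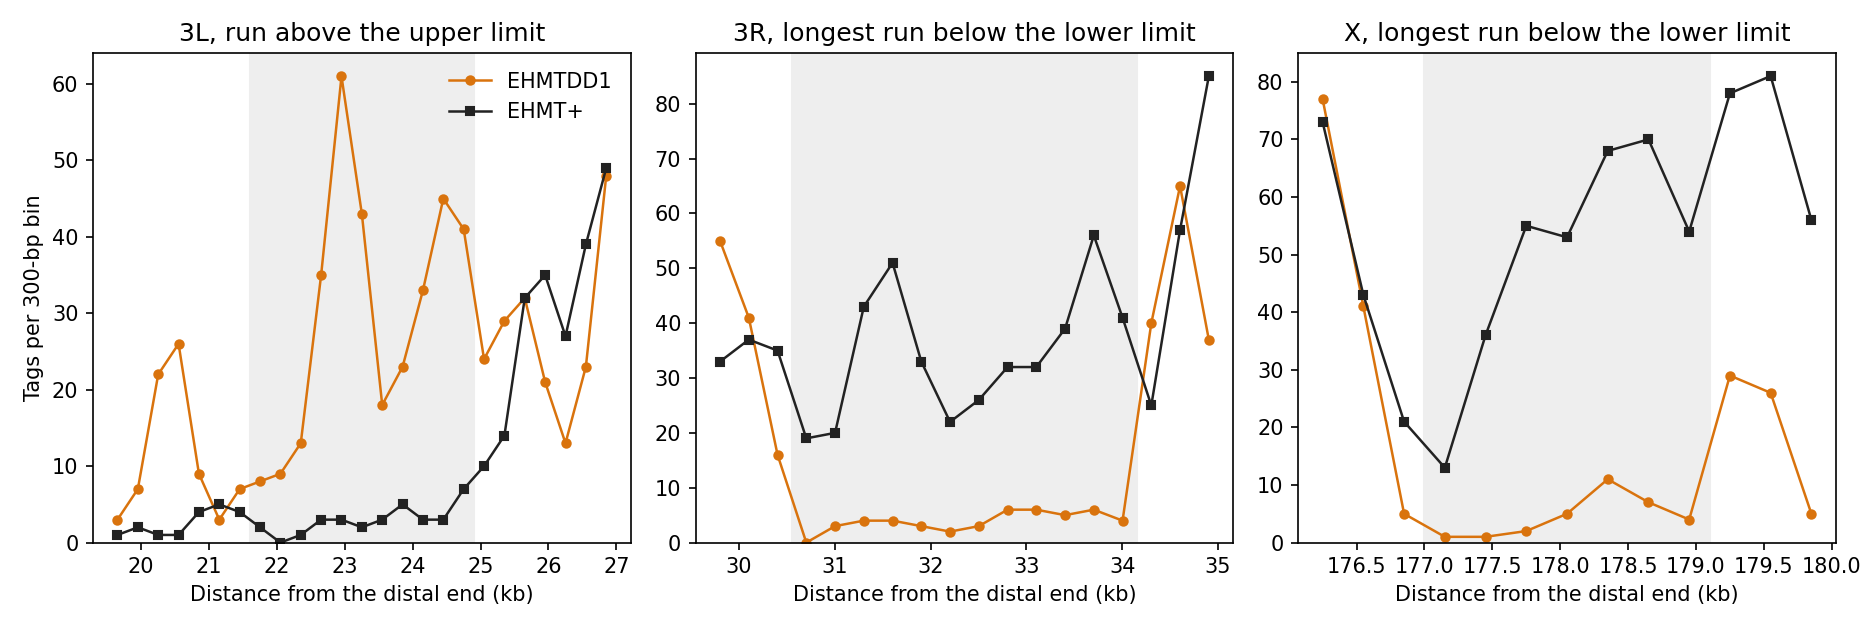
Tags per 300-bp bin (y axis) in EHMTDD1 (orange circles) and EHMT+ (black squares) against distance from the distal end in kb (x axis), for the run above the upper limit on 3L and for the longest LOMB runs of 3R and of X, each run shaded. On 3L the EHMTDD1 bins reach 61 tags where EHMT+ has 3, and in the 3R run no EHMTDD1 bin exceeds 6 tags.

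Stretches of at least 800 bp without a single 36-bp read were searched for in the same ends. EHMTDD1 had 6 such stretches in which EHMT+ had at least 12 reads, 3 on X, 2 on 2L and 1 on 3R, and EHMT+ had none in which EHMTDD1 had that many. The next 800 kb held 9 such stretches in EHMTDD1, 3 on 3L and 2 on each of the other arms, and none in EHMT+, so the imbalance was not limited to the ends. On X, 2 of the 3 lay in sequence with few tags in either library, 31481 bp with 16 EHMT+ reads and 3620 bp with 13. The stretch with most control reads was on X at 140176-141062, 887 bp with 0 reads in EHMTDD1 and 45 in EHMT+, at least 15-fold lower with the 3 counts that an observed 0 allows. Over the same length on its tip side EHMTDD1 had 80 reads and EHMT+ 65, and on its inner side 56 and 48. The mutant library was thus not low on either side of it. On 2L, the stretch at 10113-10932 lay inside the longest LOMB run, and that at 181871-182713 in the window where EHMTDD1 was the higher library.

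EHMT itself lies towards this end of X in gene order. In RefSeq's Release 6 order G9a is the 7th protein-coding gene from the distal end of X, next to CG3038, which the study names as its neighbour. Deleted sequence gives no reads, and the deletion described for this allele is close in length to the stretch at 140176-141062. No Release 5 position of the gene was used, so its distance from the tip and whether the stretch is the deletion were not tested. A stretch of the same length, 887 bp, lay on 3R at 27798005-27798891, with 0 reads in EHMTDD1 and 30 in EHMT+, at least 10-fold lower. Without the X stretch, the ratio of the X end was 0.710, against 0.708 with it.

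The other most distal protein-coding genes of the 4 arms are named here in RefSeq's order and are not placed among the bins. On 2L they are l(2)gl, a cell polarity gene and tumour suppressor, Ir21a, an ionotropic receptor, Cda5, a chitin deacetylase, dbr and galectin. On 3L mthl8 is followed by CG43149, Lsp1gamma, a storage protein of larval haemolymph, CG13405 and CG12483. On 3R the outermost are Map205, which encodes a microtubule-associated protein, mod, krz, a non-visual arrestin, Pos and heph, an RNA-binding protein. On X the order from the tip is SteXh:CG42398, CG17636, RhoGAP1A, tyn, CG17707 and CG3038, followed by G9a.

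Tag density was lower in the distal 200 kb than in the centromeric 300 kb on 2L, 3L and 3R in both libraries, and was much the same in both places on X. Over the 300 kb at the centromere, EHMTDD1 had 105 tags per kb on 2L and EHMT+ 112, against 56.4 and 59.0 in the distal end of 2L. On X the centromeric 300 kb had 47.3 tags per kb in EHMTDD1 and 64.9 in EHMT+, close to the 46.7 and 66.0 of its distal end, and a ratio of totals of 0.729, close to the 0.708 of its distal end. The share of LOMBs in the centromeric 300 kb was 19.5% on 2L, 21.6% on 3L, 15.0% on X and 12.3% on 3R. It was 33.6% on chromosome 4. The distal ends, at 8.14 to 18.1%, exceeded the average of their next 800 kb on every arm. Only X exceeded the share of its own centromeric region. In the step just inward, at 200 to 250 kb, the share was 9.64% on 3L and 10.8% on 3R, above those ends. It was 17.7% on X and 3.61% on 2L, below those ends. With 1 library per genotype these differences compare the libraries and cannot be told apart from differences in how each library recovered sequence.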

How the data were processed

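The members and lists were chosen with earlier results of these data known. Reads of 36 bp were placed on BDGP Release 5 (dm3) by the authors, who allowed 1 mismatch, kept unique positions, extended each to 300 bp and equalized both libraries to 7043913 tags. The deposited values are tag positions and strand, other than any count or signal.

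Tags were counted here in every 300-bp bin they overlapped. A bin belonged to a region by its midpoint. Totals, windows and densities counted each tag once, at its midpoint, with densities over bins with a tag in either library. Ratios have exact conditional binomial intervals and shares Wilson intervals. Regions were named by rule: extreme 10-kb windows, longest runs, stretches without reads, the 3L segment, and the 5 outermost genes (to EHMT on X). The 4-bin run on 2L and the bins above the limit on 2L and X were named after their values were seen. So were the windows beside named ones and the windows named past 200 kb. Counting was tested on simulated data. Alternatives changed bin size, limits, pseudocount, end length and comparison sequence. Arm 2R and gene positions were not used as members. Software was SciPy 1.17.1 with NumPy 2.4.6, and pandas 2.3.3 under Python 3.11.15, with figures from Matplotlib 3.10.9.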

Additional observations from a re-analysis of the deposited data

How the results depend on the processing

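No paired analysis was possible because EHMTDD1 and EHMT+ are represented by 1 library apiece. Of 82 values under alternatives, 38 stayed within the interval of the reported value (for counts, within 1.5 times), 37 moved further and 7 changed sides of 1. The cause was not tested. EHMTDD1 stayed below EHMT+ at all 4 ends under every alternative except 1. The share of LOMBs at the ends exceeded that of the next 800 kb in all 10 settings, by 2.48 to 5.30 times. The next 800 kb is itself low in LOMBs, at 2.77% in the main setting where all bins with a tag had 5.37%. The share of all bins under the alternatives is not given, so these multiples hold against the next 800 kb only. The median of the region subtracted, 25 to 60 EHMT+ tags, and leaving out the LOMBs, the X stretch or the 3L segment were alternatives added after seeing the data.

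For the ratio of EHMTDD1 to EHMT+, the outermost 100 kb gave 0.910 on 2L, 0.789 on 3L and 0.854 on 3R. The median of bins gave 0.931 on 2L and 0.620 on X. Scaling to the next 800 kb gave 0.860 on 2L, 0.804 on 3L, 0.677 on X and 0.807 on 3R. Leaving out LOMBs gave 1.02 on 2L, 0.936 on 3L, 0.817 on X and 0.974 on 3R.

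For density against the next 800 kb, all bins gave 0.792 in EHMTDD1 and 0.985 in EHMT+ on 3L, 0.587 and 0.868 on X, and 0.706 and 0.875 on 3R. The median bin gave 0.647 on X in EHMTDD1, and in EHMT+ 1.18 on 3L and 1.03 on 3R. The outermost 100 kb gave 0.862 in EHMTDD1 and 1.19 in EHMT+ on 3L, 0.844 and 1.23 on X, and in EHMT+ 1.14 on 2L and 1.02 on 3R. The rest of the arm gave 1.13 in EHMTDD1 and 1.16 in EHMT+ on 2L, 1.06 and 1.21 on 3L, 0.877 and 0.995 on 3R, and 0.852 on X in EHMTDD1.

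The 244 LOMBs became 138 with 600-bp bins, or 12.0% of bins against 2.26% in the next 800 kb. Limits of 3 SD gave 98 (4.29% against 0.960%). The outermost 100 kb gave 134 (11.8% against 2.77%), and bins with 25 to 60 EHMT+ tags 137 (9.12% against 2.14%). The 20 bins above the upper limit became 13 with at least 20 tags (0.609% against 0.257%) and 11 with 600-bp bins (0.956% against 0.309%). Limits of 3 SD gave 9 (0.394% against 0.00970%) and counting by midpoint 13 (0.578% against 0.360%). Without the 3L segment 9 remained (0.396% against 0.310%). The 3L segment ran from 9.08 to 13.0 times.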
